A study of Homo sapiens with 6 samples.

Results

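Apicobasal polarity complexes were followed here through 10 genes, taken by symbol from the deposited table of 26364 genes. They were the Par complex genes PARD3, PARD6A, PARD6B, PRKCI and PRKCZ, the Crumbs complex gene CRB3, the Scribble complex genes LLGL2, SCRIB and DLG1, and the kinase gene MARK2. All 10 had a row, and all 10 were among the 16032 genes whose mean normalised read count reached 10, the minimum for testing. T47D cells, from a human cell line established from luminal A breast cancer, had received either a control siRNA (siNC, Ambion 4390846) or an siRNA against the ETS transcription factor gene ELF5 (siELF5, Ambion AM16708), and RNA was collected 48 h later. Each group held 3 RNA-seq libraries, and all of them came from the same line and from 1 siRNA per group. Whether replicates came from separate cultures is not in the labels. The p-values therefore speak only of variation among these 6 libraries, part or all of which may be technical.

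Epithelial cells keep an apical surface apart from the basolateral one through protein complexes that exclude each other. At the apical side the Par complex, in which the scaffold PARD3 and the adaptor PARD6 hold an atypical protein kinase C, works with Crumbs proteins. On the basolateral side LLGL, SCRIB and DLG proteins and MARK kinases are kept off the apical cortex by atypical protein kinase C, and they keep the Par proteins out in turn. The series title puts the question as the part of ELF5 in epithelial integrity, of which this polarity is one element.

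The libraries held 66.8 M to 83.7 M assigned reads. ELF5 was at 28.1% of its siNC mean in siELF5, 13095 ± 164 against 3680 ± 43.7 normalised reads (SD, n = 3), and the groups matched their labels. The 8 luminal epithelial markers (KRT8, KRT18, KRT19, EPCAM, ESR1, PGR, GATA3 and FOXA1) were all expressed. Their summed normalised count was 668480 to 716920 in siNC and 612500 to 635290 in siELF5. Single markers went both ways: KRT8 and KRT18 were lower in every siELF5 library than in any siNC library, and ESR1, PGR and FOXA1 were higher in every one. Of 6 basal markers 4 had a mean under 10, as did 4 of 6 fibroblast, 4 of 6 leukocyte and 4 of 5 endothelial markers. The basal sums were 228.7 to 267.2 in siNC and 267.2 to 306.1 in siELF5, and the leukocyte sums 237.9 to 243.9 and 293.4 to 348.2. The endothelial sums were 30.4 to 41.5 and 13.7 to 14.5, and the fibroblast sums 4227 to 5409 and 3378 to 3888, of which COL1A1 held most, with a mean of 4061. TYROBP was at 0 in all libraries. The part of these lists in the polarity results was not tested. In bulk RNA fewer cells expressing a gene and less RNA per cell cannot be told apart.

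Of the 10 polarity genes 6 changed, 4 upward and 2 downward, at a limma p-value adjusted over all tested genes of under 0.05. The share called among all tested genes was 47.1%, with 23.8% higher and 23.3% lower, so a count of 6 in 10 is not far from the background. The 3 basolateral Scribble genes and CRB3 were higher in siELF5, whereas PARD6B and MARK2 were lower. PARD3, PARD6A and both atypical protein kinase C genes did not pass the test. The median log2 fold change of the 10 was 0.06, against 0.002 over all tested genes. edgeR, DESeq2 and the authors' deposited table called the same 6 genes, against 47.3%, 45.5% and 41.1% of genes over their whole tables. By direction edgeR called 23.8% higher and 23.4% lower, and DESeq2 22.9% and 22.6%. For all 6 the siELF5 values lay wholly on one side of the siNC values, as they did for 55.9% of all tested genes. None of the 6 calls held in limma once a library GC score, taken from the values of genes grouped by GC content, was a covariate. Of the 6, CRB3, LLGL2 and SCRIB then turned direction, and the values follow the single genes.

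**Figure D1:**
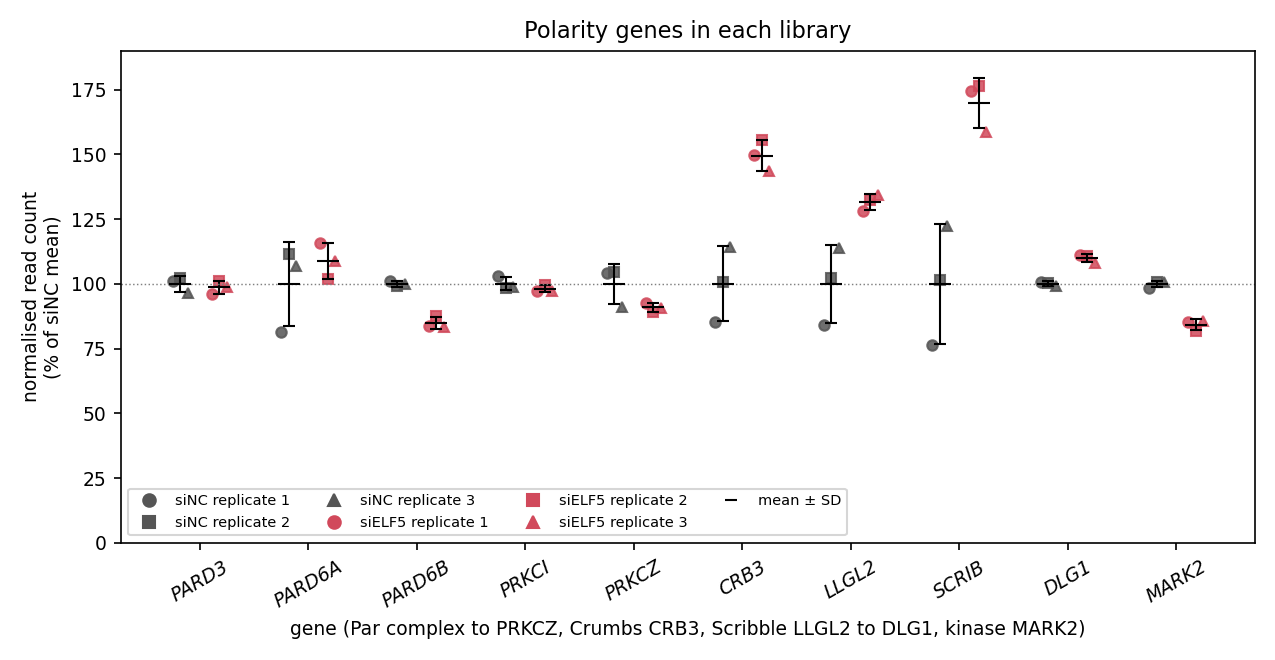
Normalised read count of each polarity gene in each library, as percent of the gene's siNC mean (vertical axis), with genes in order of their complex on the horizontal axis; grey points are siNC, red points siELF5, shapes are replicate numbers, and black bars are the mean ± SD of 3 libraries. CRB3, LLGL2 and SCRIB were spread widely in siNC and lay higher in siELF5, at 149.5%, 131.6% and 169.8% of the siNC mean, whereas PARD6B and MARK2 lay near 84.8% and 84.2%.

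PARD6B, the adaptor that links CDC42 to atypical protein kinase C in epithelia, fell. It had normalised read counts of 13126, 12851 and 12951 in siNC replicates 1, 2 and 3, and 10884, 11341 and 10799 in siELF5 replicates 1, 2 and 3. Every siELF5 library was below every siNC library, and the siNC libraries were close to each other. The means were 12976 ± 139 and 11008 ± 291 (SD, n = 3), and the log2 fold change, by limma, was -0.24 ± 0.0318 (SE; adjusted p = 5.92e-05).

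PARD6A, the other PARD6 adaptor measured among the 10, did not pass the test. The counts were 816, 1119 and 1070 in siNC and 1159, 1022 and 1089 in siELF5. The groups overlapped, and siNC replicate 1 was the low library. The log2 fold change was 0.13 (95% interval -0.09 to 0.36, limma adjusted p = 0.314). It was -0.0074 without siNC replicate 1, -0.16 with a correction for GC content and -0.38 with a library GC score as covariate, so no direction can be given for PARD6A.

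PARD3, the scaffold that recruits the Par complex to junctions, had values of 4003, 4058 and 3828 in siNC and 3803, 4000 and 3918 in siELF5. The groups overlapped, with a log2 fold change of -0.02 (95% interval -0.11 to 0.07, limma adjusted p = 0.715).

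PRKCI, atypical protein kinase C iota, was at 14976, 14330 and 14387 in siNC and at 14174, 14525 and 14179 in siELF5. The groups overlapped here too, and the log2 fold change of PRKCI was -0.03 (95% interval -0.09 to 0.04, limma adjusted p = 0.509). Its relative PRKCZ, atypical protein kinase C zeta, was at 1313, 1319 and 1148 in siNC and 1168, 1124 and 1144 in siELF5. Only siNC replicate 3 lay within the range of the siELF5 libraries. The log2 fold change of PRKCZ was -0.13 (95% interval -0.28 to 0.01, limma adjusted p = 0.115). It passed downward without siNC replicate 3, at -0.20 (adjusted p = 0.0216), and with quantile scaling, at -0.20 (adjusted p = 0.0342). Exons of opposite-strand genes, FAAP20 and PRKCZ-AS1 among them, cover 12.3% of the exon bases of PRKCZ in GENCODE 29. The library kit does not mark strand, so its values are uncertain.

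CRB3, the short transmembrane Crumbs protein of epithelial apical membranes and junctions, rose. It was at 576, 681 and 771 in siNC and 1012, 1051 and 969 in siELF5. All siELF5 libraries were above all siNC libraries, and siNC replicate 1 was the lowest of the 6. The means were 676 ± 97.6 and 1011 ± 40.7 (SD, n = 3), and the log2 fold change, by limma, was 0.59 ± 0.095 (SE; adjusted p = 0.00026). CRB3 was the least abundant of the 10 by count.

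SCRIB, the basolateral scaffold that names the Scribble complex, had the largest log2 fold change of the 10 in the fit with no GC term. The siNC libraries were at 4135, 5498 and 6632 and the siELF5 libraries at 9451, 9559 and 8602. The groups did not overlap, but the siNC libraries were spread over a wider range than the siELF5 libraries. The means were 5422 ± 1250 and 9204 ± 524 (SD, n = 3), and the log2 fold change, by limma, was 0.79 ± 0.119 (SE; adjusted p = 0.00016). It was 0.24 with the GC correction, where CRB3 had the larger value (0.41), and -0.19 with the GC score.

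LLGL2, the epithelial Lgl protein and a substrate of atypical protein kinase C, rose as well. Its normalised read count was 6006, 7305 and 8133 in siNC and 9169, 9458 and 9588 in siELF5. The groups did not overlap, and the highest siNC value was that of replicate 3. The log2 fold change of LLGL2 was 0.41 (SE 0.0793, limma adjusted p = 0.00103), and the call was lost after a correction for GC content.

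DLG1, a membrane-associated scaffold of the basolateral side, rose by less and with little spread. Its normalised read count was 24597, 24438 and 24141 in siNC and 27081, 27039 and 26395 in siELF5. The groups stood apart by more than the range within either. The mean in siELF5 was 110% of that in siNC, and the log2 fold change, by limma, was 0.14 ± 0.0276 (SE; adjusted p = 0.00125). DLG1-AS1, on the opposite strand, covers 2.19% of the exon bases of DLG1.

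MARK2, the kinase also called Par-1b, which phosphorylates PARD3 and keeps it off the lateral membrane, fell. Its normalised read count was 9541, 9739 and 9760 in siNC and 8246, 7910 and 8301 in siELF5. All siELF5 libraries were below all siNC libraries. The means were 9680 ± 121 and 8152 ± 212 (SD, n = 3), and the log2 fold change, by limma, was -0.25 ± 0.0332 (SE; adjusted p = 5.96e-05).

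To compare genes with each other, counts were divided by the length of the longest GENCODE 29 transcript. DLG1 had the highest level, 4846 ± 46 normalised reads per kilobase in siNC (SD, n = 3), above 94.0% of the tested genes with a length. PRKCI followed with 2942 ± 72.3 and PARD6B with 2812 ± 30.2, and each of these 3 was apart from its neighbour in every siNC library. MARK2 (2047 ± 25.6) lay within the range of LLGL2 (2027 ± 304). SCRIB (1039 ± 240), PARD6A (782 ± 127) and PARD3 (660 ± 20) came next, and neighbours in this order overlapped. PRKCZ (542 ± 41.8) and CRB3 (468 ± 67.7) had the lowest levels per kilobase and overlapped as well, near the middle of all genes. PRKCI was thus the more abundant atypical protein kinase C, and PARD6B the more abundant of PARD6A and PARD6B, in siNC and in siELF5. In siELF5 the level per kilobase of LLGL2 (2667 ± 60.8) lay above that of PARD6B (2385 ± 63.1), and that of CRB3 (700 ± 28.2) above that of PRKCZ (492 ± 9.62). The transcript forms in these cells were not measured, and with the median transcript length the order differed: PARD3 took the lowest place, LLGL2 stood above PARD6B in siNC too, and CRB3 stayed below PRKCZ in both groups (1116 against 1632 in siELF5).

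**Figure D2:**
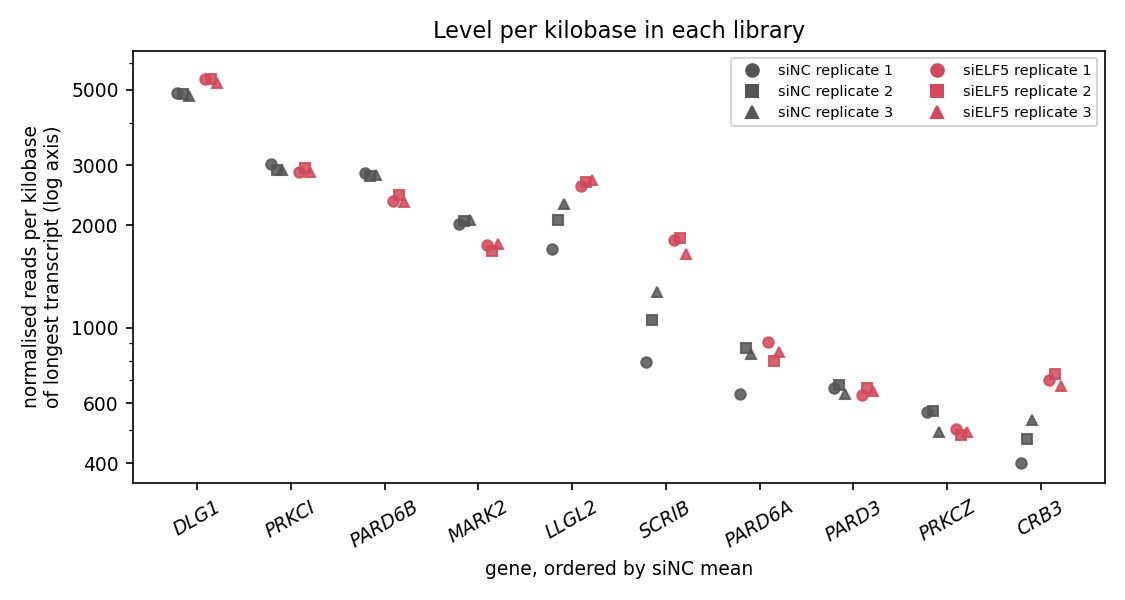
Normalised reads per kilobase of the longest transcript (log axis) for each polarity gene in each library, ordered by the siNC mean; grey points are siNC, red points siELF5, and shapes are replicate numbers. DLG1 had the highest level, at 4846 in siNC and 5331 in siELF5, and CRB3 was at 468 in siNC and 700 in siELF5, above PRKCZ in siELF5 on this length only and not with the median transcript length.

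Base composition moved with these results. A library GC score, computed over 10 equal classes of genes by transcript GC content as the median deviation of the class with the highest content less that of the fifth class, was -0.39, -0.22 and -0.07 in siNC replicates 1, 2 and 3 and 0.22, 0.27 and 0.22 in siELF5, so the groups did not overlap in it. Base composition of the libraries and the siRNA therefore cannot be told apart by this design. The score comes from the same expression values, so any action of the siRNA on GC-rich transcripts would also move it. SCRIB, LLGL2 and PARD6A are themselves in the class with the highest content. The 3 polarity genes that rose most are GC-rich, with 60.9% for CRB3, 63.2% for LLGL2 and 66.5% for SCRIB, and so are PARD6A (62.7%), MARK2 (60.1%) and PRKCZ (59.6%). PARD3 (50.3%), PARD6B (40%), PRKCI (39.1%) and DLG1 (38.7%) are not. CRB3, LLGL2, SCRIB and PARD6A had coefficients of variation of 14.4%, 15%, 23.1% and 16.2% among the siNC libraries, each with its lowest value in replicate 1, the library with the lowest GC score. The other 6 genes had at most 7.72%.

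Beside genes of like composition the polarity genes ranged widely. Among the 1543 genes of the class with the highest GC content the median log2 fold change was 0.42, and 62.2% rose. LLGL2, at 0.41, lay at that median, SCRIB, at 0.79, above it and PARD6A, at 0.13, below it. In the next class, where the median was 0.11, CRB3 stood at 0.59, PRKCZ at -0.13 and MARK2 at -0.25. In the class that holds DLG1, PRKCI and PARD6B the median was -0.04, and DLG1 was at 0.14 and PARD6B at -0.24.

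**Figure D3:**
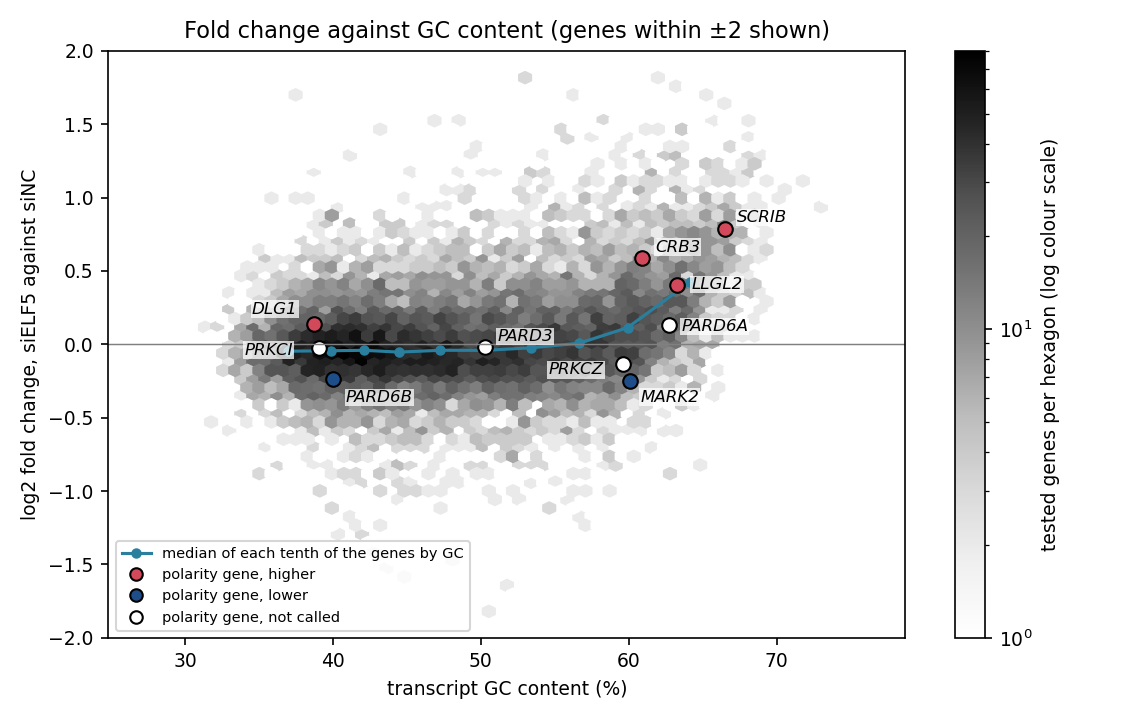
Log2 fold change in siELF5 against siNC (vertical axis) and transcript GC content in percent (horizontal axis) for all tested genes within ±2, as grey hexagons whose shade is the number of genes on a log scale; the blue line joins the medians of the 10 classes by GC content, and circles are the 10 polarity genes, red if higher, blue if lower and white if not called. The class median rises to 0.42 at the right, where SCRIB lies above it, LLGL2 on it and PARD6A below it, while MARK2 lies under the line at 60.1% GC.

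A correction of each library for GC content kept 5 of the 6 calls. It subtracts a smooth curve of the genes' deviations on GC content, and so would also remove any action of the siRNA that falls on GC-rich transcripts. With it 3 of the 10 rose and 3 fell, where 48.3% of all tested genes were called, 23.1% higher and 25.2% lower. CRB3 was then at 0.41 (SE 0.0742, limma adjusted p = 0.000293), SCRIB at 0.24 (SE 0.0571, adjusted p = 0.00276) and DLG1 at 0.18 (SE 0.0232, adjusted p = 1.35e-05). LLGL2 no longer passed, at 0.08 (adjusted p = 0.134). MARK2 fell by 0.39 on the log2 scale and PARD6B by 0.20. PRKCZ, which had not passed, fell by 0.25 (adjusted p = 0.00925).

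A fit that takes the GC score of the library as covariate called 0 of the 10 (limma), where it called 7.31% of all tested genes, 3.26% higher and 4.05% lower. At an unadjusted p under 0.05 it counted 4 of them, DLG1 upward and MARK2, PARD6B and LLGL2 downward. LLGL2 was thus counted against the direction of its main call. The share of all tested genes at that unadjusted threshold was not computed, so the count has no background. No other tool was run with this covariate. The standard error of SCRIB fell from 0.119 to 0.0999. Those of the other polarity genes rose with the covariate, for PARD6B from 0.0318 to 0.0833. PARD6B was then at -0.23 (adjusted p = 0.11), MARK2 at -0.27 (adjusted p = 0.0628) and DLG1 at 0.17 (adjusted p = 0.195), near their values without it. CRB3 was at -0.02 (adjusted p = 0.965), SCRIB at -0.19 (adjusted p = 0.306) and LLGL2 at -0.21 (adjusted p = 0.202), so these 3 turned direction. Of the genes that had not passed, PARD6A turned from 0.13 to -0.38 (adjusted p = 0.306) and PRKCZ from -0.13 to 0.14 (adjusted p = 0.682). PARD3 and PRKCI were at 0.05 each, also on the other side of 0.

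**Figure D4:**
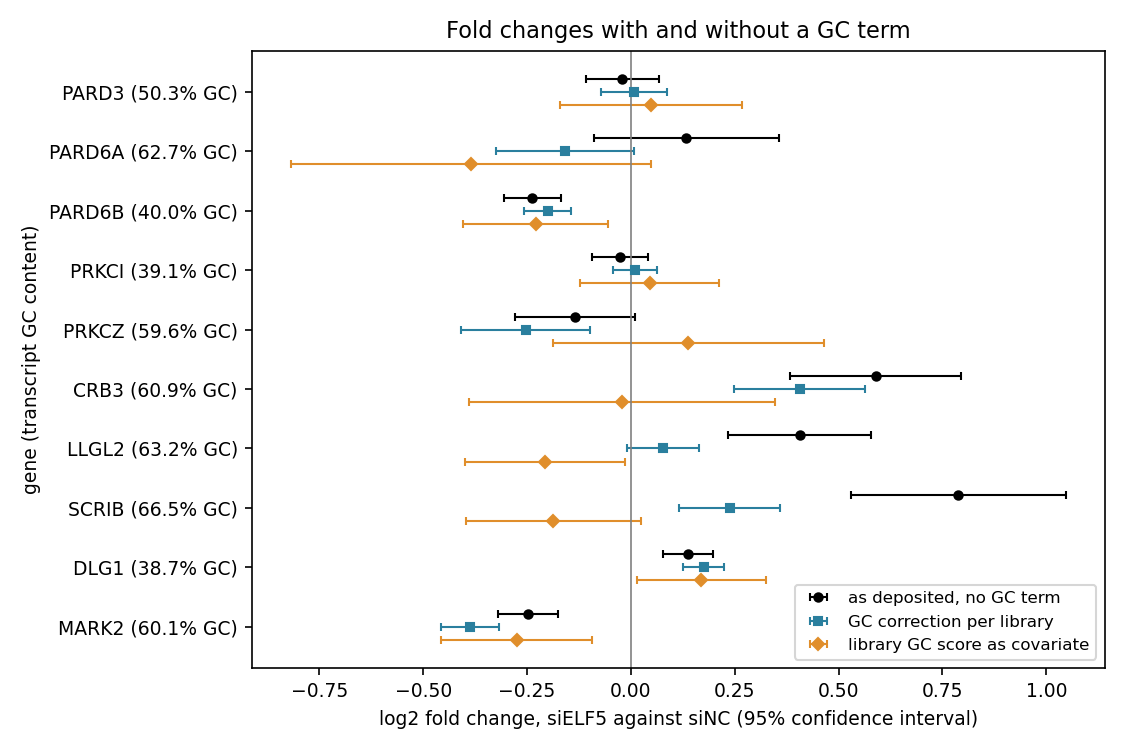
Log2 fold change in siELF5 against siNC with its 95% confidence interval (horizontal axis) for each polarity gene, with transcript GC content in brackets; black circles have no GC term, blue squares the per-library GC correction and orange diamonds the library GC score as covariate. PARD6B, DLG1 and MARK2 keep their side of 0 in all 3 fits, whereas CRB3, LLGL2 and SCRIB lie above 0 in the black and blue fits and below 0 in the orange one.

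Promoter windows were available from RefSeq (GRCh38.p14, 250 bases before to 50 after a start) for 6 of the 10 genes, in 14 windows, some of which overlap. Windows for PARD3, PARD6B, LLGL2 and SCRIB were not used here. ETS factors such as ELF5 bind sites around a GGAA core, so AGGAAG and CGGAAG were searched on both strands. AGGAAG was found in 4 of the 14 windows, in DLG1, MARK2, PARD6A and PRKCZ, against 33.6% of all 35116 windows. CGGAAG was found in 4 of the 14, in CRB3, MARK2 and a pair of DLG1 windows, against 19.5% of all windows. A match describes the letters and is not a binding site. The 250 bases before the start are shown for CRB3, which rose, and for the MARK2 window with matches, since MARK2 fell, both on the plus strand and 5′ to 3′, with matches on either strand in capitals. They lie at chr19:6464021-6464270 for CRB3 and at chr11:63888287-63888536 for MARK2.
CRB3: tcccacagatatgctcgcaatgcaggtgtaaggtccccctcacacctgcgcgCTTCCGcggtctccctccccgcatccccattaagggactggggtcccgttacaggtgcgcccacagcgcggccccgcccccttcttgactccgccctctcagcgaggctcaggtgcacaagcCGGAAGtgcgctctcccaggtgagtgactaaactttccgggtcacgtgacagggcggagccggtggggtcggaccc
MARK2: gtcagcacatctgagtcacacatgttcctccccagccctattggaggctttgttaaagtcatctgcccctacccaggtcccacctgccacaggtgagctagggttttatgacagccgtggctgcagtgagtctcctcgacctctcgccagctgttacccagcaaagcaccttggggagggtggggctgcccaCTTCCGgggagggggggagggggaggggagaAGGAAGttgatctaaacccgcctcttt

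Each stretch holds 2 matches. In CRB3 both are CGGAAG, 1 of them on the opposite strand. In MARK2 an opposite-strand CGGAAG stands before an AGGAAG, and a further AGGAAG lies in the bases after the start, which are not printed. The other MARK2 window, at another start, held neither motif. CRB3, which rose, and MARK2, which fell, both carried the letters. Of the genes that did not pass, PARD6A and PRKCZ carried an AGGAAG and PRKCI carried neither motif. The 7-base 3′ UTR motifs CACTAAC and ACTAACA, which were picked by an earlier search of these same data, were in 0 of the 10 genes, against 11.6% of the tested genes that could be searched. With motifs picked in this way and only 10 genes, this count is a description and not a test.

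Genes of the same family did not all move as the polarity genes did. Ratios within a library were compared between groups for 6 pairs with an exact permutation test (two-sided), whose smallest p is 0.10 with 3 against 3. The 4 ratios that reached it have an adjusted p of 0.15 over the 6 pairs. The log2 ratio of DLG1 to its X-linked relative DLG3 was 1.83, 1.86 and 1.81 in siNC and 2.32, 2.37 and 2.32 in siELF5, a difference of 0.50 (exact p = 0.10). DLG1 rose while DLG3 fell by 0.36 on the log2 scale (SE 0.0343, limma), and the ratio did not overlap between groups. The ratio of PARD3 to PARD3B, a relative of PARD3 that does not bind atypical protein kinase C, was higher in siELF5 by 0.30 without overlap (exact p = 0.10). PARD3B itself fell by 0.32 (SE 0.0742, limma). With the GC score PARD3B was at -0.49, short of the threshold (SE 0.193, limma adjusted p = 0.145).

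The ratio of MARK2 to MARK3, a kinase of the same family, was 0.18 ± 0.03 in siNC and -0.01 ± 0.06 in siELF5 (SD, n = 3), without overlap (exact permutation p = 0.10). The difference was -0.19, and -0.37 after the GC correction. The ratio of PARD6A to PARD6B was higher by 0.37 without overlap (exact p = 0.10), but by 0.04 after the GC correction (exact p = 0.80). PRKCI to PRKCZ and LLGL2 to LLGL1 overlapped between groups, with differences of 0.11 and 0.15 (exact p and adjusted p = 0.30 for each). After the GC correction the first was 0.26 (exact p = 0.10), and the second was -0.02 (exact p = 1). LLGL1, the other Lgl gene, rose by 0.26 (SE 0.0551, limma) and is GC-rich as well, at 60.6%. It was at 0.10 after the GC correction (adjusted p = 0.105).

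A wider list of 47 polarity genes gives the surroundings. Of the 46 that could be tested 14 rose, 19 fell and 13 did not pass, beside 23.8% and 23.3% of all tested genes. The median log2 fold change was -0.06. In the fit with the GC score 2 of them rose and 8 fell, beside 3.26% and 4.05% of all tested genes in that fit.

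Among 7 partners of the Par complex 4 rose and 2 fell, against 23.8% and 23.3% of all tested genes. With the GC score 0 rose and 0 fell, against 3.26% and 4.05% of all tested genes. TIAM1, an exchange factor for RAC1 that binds PARD3, rose by 0.35 on the log2 scale (SE 0.0403), with means of 2698 ± 56.2 in siNC and 3440 ± 11.7 in siELF5 (SD, n = 3). RAC1 itself rose by 0.14 (SE 0.0289). ARHGAP17, a CDC42 and RAC1 inhibitor at junctions, fell by 0.27 on the log2 scale. With the GC score TIAM1 was at 0.30, RAC1 at 0.15 and ARHGAP17 at -0.24, short of the threshold (limma adjusted p = 0.105, 0.271 and 0.222). PARD6G, the third PARD6 gene, was at 0.03 (limma adjusted p = 0.845).

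Of 8 tested partners of the Crumbs complex 1 rose, 4 fell and 3 did not pass, against 23.8% higher and 23.3% lower of all tested genes. With the GC score 1 rose and 1 fell, against 3.26% and 4.05% of all tested genes. EPB41L5, a FERM protein that binds Crumbs, had a mean of 3630 ± 178 in siNC and of 2386 ± 36.4 in siELF5 (SD, n = 3), so that it fell, and the log2 fold change, by limma, was -0.60 ± 0.0464 (SE; adjusted p = 5.38e-07). INADL, the scaffold now called PATJ, fell by 0.22 and MPP5, the PALS1 adaptor to which CRB3 binds directly, by 0.26. MPP7, a MAGUK scaffold that pairs with DLG1, rose by 0.43 (SE 0.0301). CRB1 was below the minimum for testing and CRB2 was at 17.4 ± 5.14 in siNC and 18.4 ± 8.99 in siELF5 (SD, n = 3), so CRB3 had the most reads of the Crumbs genes. EPB41L5 and MPP7 passed with either GC adjustment, and MPP5 and INADL passed with the GC correction only.

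Of 8 partners of the Scribble complex 2 rose and 6 fell, against 23.8% and 23.3% of all tested genes. DLG2 fell by 0.48 (SE 0.0529), DLG3 by 0.36 and LRRC1, a relative of SCRIB also called LANO, by 0.31 (SE 0.0429). In the fit with the GC score DLG3 and LRRC1 still passed and DLG2 did not (-0.20, limma adjusted p = 0.324). Of the 8 partners 0 rose and 2 fell in that fit, against 3.26% and 4.05% of all tested genes.

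Among 8 MARK and LKB1 genes 2 rose, 2 fell and 4 did not pass, near the 23.8% higher and 23.3% lower of all tested genes. With the GC score 1 rose and 1 fell, against 3.26% and 4.05% of all tested genes. CAB39L, an MO25-type subunit that activates the polarity kinase LKB1, had a mean of 3471 ± 47.1 in siNC and of 2058 ± 128 in siELF5 (SD, n = 3), so that it fell, and the log2 fold change, by limma, was -0.76 ± 0.0508 (SE; adjusted p = 1.65e-07). STRADB, a pseudokinase partner of LKB1, rose by 0.67 (SE 0.0739). STK11, the LKB1 gene, rose by 0.51, but with 65.8% GC it was at 0.01 after the GC correction (adjusted p = 0.903).

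Of the 7 genes of 14-3-3 proteins, which bind PARD3 once MARK kinases have phosphorylated it, 3 rose, 1 fell and 3 did not pass. The shares of all tested genes were 23.8% higher and 23.3% lower. With the GC score 0 of the 7 rose and 1 fell, against 3.26% and 4.05% of all tested genes. YWHAE fell by 0.32 (SE 0.0325) and YWHAQ rose by 0.14 (SE 0.0387). The call of YWHAQ was lost without siNC replicate 2, siELF5 replicate 1 or siELF5 replicate 2 (limma adjusted p = 0.0503, 0.0556 and 0.059), with no intensity trend (0.0897) and with the GC score (0.50). SFN rose by 0.14 (SE 0.034), but after the GC correction it was at -0.16 (limma adjusted p = 0.00724). Of 8 apical scaffolds and Hippo-linked genes 2 rose, 4 fell and 2 did not pass, beside the same shares of 23.8% and 23.3%. With the GC score 0 of the 8 rose and 3 fell, against 3.26% and 4.05% of all tested genes. AMOTL1, an angiomotin that binds polarity scaffolds, had a mean of 1502 ± 54.2 in siNC and of 669.5 ± 11.6 in siELF5 (SD, n = 3), so that it fell, and the log2 fold change, by limma, was -1.16 ± 0.061 (SE; adjusted p = 1.97e-08). WWC1, or KIBRA, a regulator of atypical protein kinase C, fell by 0.55 (SE 0.0349). SLC9A3R1, the ezrin-binding scaffold NHERF1, rose by 0.32 (SE 0.045), and by 0.10 after the GC correction. With the GC score SLC9A3R1 was at 0.14, short of the threshold (limma adjusted p = 0.472). Among the named genes of the wider list, STRADB and MPP7 were called upward with either GC adjustment. AMOTL1, WWC1, CAB39L, EPB41L5, DLG3, LRRC1 and YWHAE were called downward with either.

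**Figure D5:**
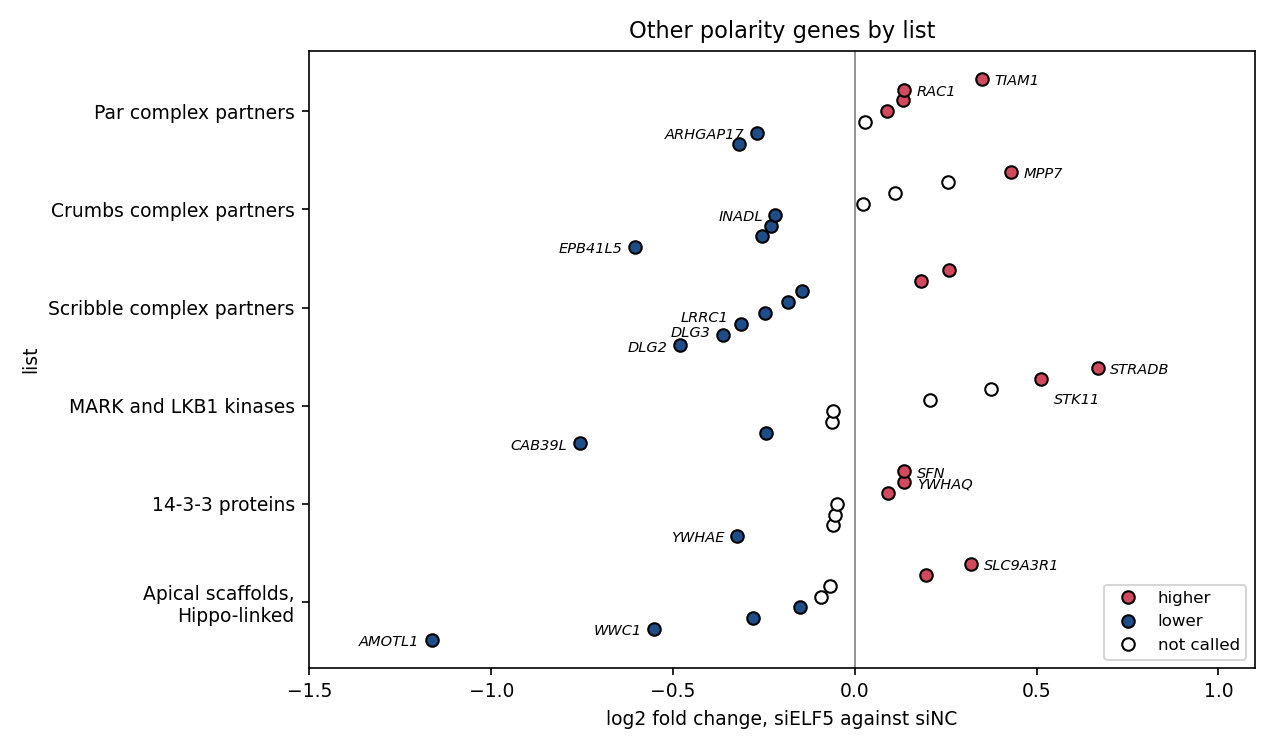
Log2 fold change in siELF5 against siNC (horizontal axis) of the 46 other polarity genes tested, in 6 lists (vertical axis); each circle is a gene, red if higher, blue if lower and white if not called, and the genes named by rule are labelled. AMOTL1 lies farthest left at -1.16 and STRADB farthest right at 0.67, and 6 of the 8 Scribble complex partners lie on the left.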

How the data were processed

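TruSeq RNA kit v2 libraries (per the labels' protocols) were processed with STAR 2.6, Subread, featureCounts 1.6.3 and DESeq2 1.22.1 on hg19, per the submitters' processing notes; neither their settings nor the annotation is stated in the sources. What the authors deposited for each library is a signal value: every non-zero value is a whole multiple of its column's smallest (100%, tolerance 1e-06), so it is a count divided by a size factor. The deposited log2 fold change, test score and p-value columns are the authors' own results, per the file headers, and entered no test.

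The main test was limma 3.58.1 (R 4.3.3) on log2(value + 1), two-sided and with the trend option, for genes averaging 10 or more, with Benjamini-Hochberg adjustment and a threshold of 0.05. This scale understates changes of low genes. edgeR 4.0.16 and DESeq2 1.42.0 were run on recovered reads. The longest transcript in GENCODE 29 gave each gene's GC content and length (96.2% of tested genes); loess used a span of 0.3. Fit, scaling, filter, pseudocount, tool, GC term, replicate block and libraries were varied in 22 alternatives. No replicate pair agreed within sampling noise (chi-square divided by its degrees of freedom, 4.37 to 12).

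The members, gene lists and tests were chosen with earlier results of these data known. The text names the 10 members, ELF5, both genes of 6 family ratios and, from each of 6 lists, the 3 called genes of lowest adjusted p. CRB1, CRB2, MPP5, PARD6G, COL1A1 and TYROBP were named after their values were seen. Of the luminal markers, KRT8, KRT18, ESR1, PGR and FOXA1 were singled out in the same way.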

Additional observations from a re-analysis of the deposited data

How the results depend on the processing

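Over 22 alternatives PARD6B, DLG1, MARK2, CRB3 and SCRIB passed in 21 each and LLGL2 in 19; PARD3, PARD6A and PRKCI passed in none. The fit with the GC score called 1172 genes (522 higher, 650 lower), and of the 10 polarity genes it called 0 (0 higher, 0 lower). Of the wider list 10 were, 2 higher and 8 lower. Log2 fold changes were then -0.23 for PARD6B, 0.17 for DLG1 and -0.27 for MARK2, short of the threshold, and reversed to -0.021 for CRB3, -0.19 for SCRIB and -0.21 for LLGL2. With the GC correction LLGL2 was at 0.077, with or without a replicate block (adjusted p = 0.0757 with it), and PRKCZ passed at -0.25 in both. PRKCZ also passed with quantile scaling (-0.20). Without each library in turn PRKCZ ranged from -0.20 to -0.10, CRB3 from 0.48 to 0.69, LLGL2 from 0.29 to 0.51 and SCRIB from 0.61 to 0.95. After the GC correction the ratio differences were 0.041 for PARD6A to PARD6B, 0.26 for PRKCI to PRKCZ, -0.37 for MARK2 to MARK3 and -0.019 for LLGL2 to LLGL1, the last reversed. Among other named genes SFN reversed to -0.16 with the GC correction, with or without the block, and STK11 to -0.051 with the GC score. The cause was not tested.

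Same-numbered libraries did not deviate together (correlations of 0.01, -0.03 and -0.06), so the numbers were not taken as pairs; a replicate block called 7174 genes in place of 7559 and the same 6 polarity genes. With the median transcript length, levels per kilobase in siNC were 694.7 for PARD3, 5052 for PARD6B, 27170 for PRKCI, 1795 for PRKCZ, 746.5 for CRB3, 9887 for LLGL2, 2799 for SCRIB, 28330 for DLG1 and 3624 for MARK2.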
